A study of Mus musculus with 20 samples.

Results

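The comparison described here set 5 samples of transformed postnatal progenitors against 5 samples of control postnatal progenitors, chosen by those words in their labels, which are 10 of the 20 samples of the series. All are mouse brain cell lines, and total RNA of each sample was measured on its own single-colour Affymetrix array. The other 10 arrays hold embryonic progenitors, 5 transduced and 5 control, which entered the same model and 1 comparison at the end. The labels do not say what transformed the postnatal cells, what sequence if any was introduced, from which brain region or age they came, or how the controls were kept. Samples of a group carry numbers, but no label states that each was grown on its own. The p-values therefore reflect the spread among these arrays alone, and that spread could be technical.

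Glial progenitors of the postnatal brain divide and give rise to oligodendrocytes and astrocytes, and they are one of the cell types from which gliomas can be grown. Their divisions are governed by cyclin D kinases acting on the retinoblastoma protein, and the inhibitors encoded at the Cdkn2a and Cdkn2b locus restrain those kinases and are often deleted in glioma. Cells short of amino acids, or with unfolded protein in the endoplasmic reticulum, make the transcription factor ATF4, which switches on genes for amino acid synthesis, uptake and charging of tRNA.

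Signals are linear intensities as deposited. Tests used log2(signal + 16) in limma, 1 probe set per gene, and a gene was called changed at a Benjamini-Hochberg adjusted p under 0.05 over 18193 genes together with a change of at least 2-fold. Changes are transformed minus control with the standard error of that fit, and they understate the change of dim genes because of the added 16. A background level, the 95th percentile of 27 bacterial control probe sets on each array, ran from 107 to 200 on the transformed arrays and from 120 to 170 on the control arrays. For 136 called genes chosen by rule, another probe set was above background on all 5 arrays of a group. Of these genes, 116 had the same call in every such set and 20 did not, 9 of which shared it in none. No such set had an opposite call.

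The control arrays were not alike. Replicates 4 and 5 correlated with each other at r = 0.968 across genes and with replicates 1 to 3 at 0.947 to 0.955, whereas the transformed arrays correlated with one another at 0.965 to 0.970. The cell cycle gene Mki67 had 5403, 3955, 5099, 4123 and 3848 on the transformed arrays, against 37266, 34816, 35822, 5929 and 4351 on the control arrays. Control replicates 4 and 5 thus read near the transformed arrays, and far below control replicates 1 to 3. The comparison was therefore repeated against control replicates 1 to 3 alone. Unless a change is stated, every call of a named gene below held against those 3, and list counts are given for them, higher and then lower, where they differ. The log2 ratio of 3' to 5' control probe sets for Gapdh, a sign of RNA quality, lay between -0.59 and -0.48 on transformed arrays and between -0.51 and -0.41 on control arrays, and its part in the results was not tested. In bulk RNA, fewer cells of a type and less RNA per cell cannot be told apart.

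Progenitor genes were bright in both groups. Olig2, a transcription factor of the oligodendrocyte lineage, had 47856, 47532, 49578, 48067 and 43944 on the transformed arrays, against 72739, 68314, 77016, 64617 and 65766 on the control arrays. The groups did not overlap, and the difference, -0.55 ± 0.057 on the log2 scale, was below the 2-fold needed for a call. Sox2, a stem and progenitor cell factor, averaged 36853 ± 1418 in transformed and 61414 ± 2477 in control cells (SD, n = 5 each), and Pdgfra, the growth factor receptor of oligodendrocyte progenitors, 31661 ± 1521 and 47465 ± 9850.1. Both were lower by less than 2-fold (-0.74 ± 0.073 and -0.56 ± 0.19).

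Of 18193 genes, 1739 were called higher (9.56%) and 1165 lower (6.4%) in transformed than in control cells, and the median change of all genes was -0.0024 on the log2 scale. Against control replicates 1 to 3 alone, 1682 were called higher (9.25%) and 1320 lower (7.26%). The calls held by both were 1469 higher and 980 lower, and no gene was called in opposite directions. The rises were the larger changes. Among the genes called with all 5 controls, 98 higher and 17 lower genes passed 16-fold by the fitted change, and 653 and 234 passed 4-fold. At background on all 5 control arrays were 226 of the higher genes, and at background on all 5 transformed arrays 128 of the lower ones, so their fitted folds are not exact. The arrays of the 2 groups did not overlap for 1487 of the 1739 higher and 858 of the 1165 lower genes, and over all genes tested for 5860 (32.2%).

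**Figure D1:**
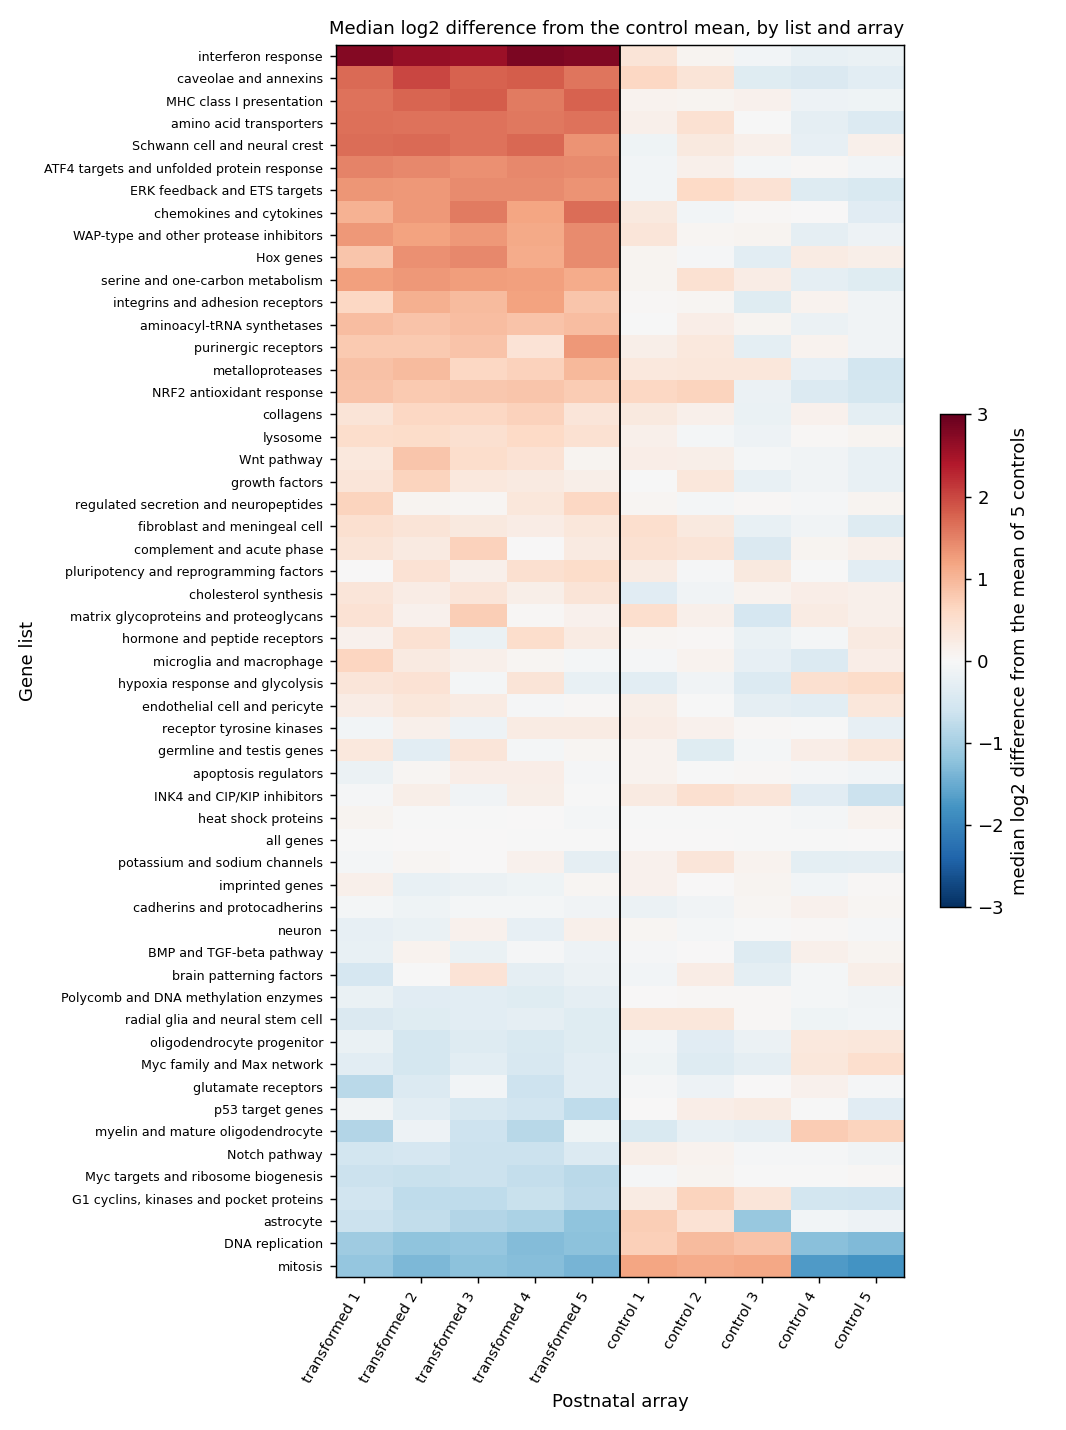
Median difference, on the log2 scale, of each gene list (rows) from the mean of the 5 controls, on each of the 5 transformed arrays (left of the line) and the 5 control arrays (right); red is higher and blue lower, and the scale ends at 3. The interferon, caveolae and annexin, MHC class I and amino acid transporter lists are red on every transformed array, while the mitosis and DNA replication lists are blue on every transformed array and on control arrays 4 and 5.

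The 8 marker genes were chosen for this comparison with earlier results of these data known, so that all were called is not a separate result. Of them, 6 rose and 2 fell, all also against control replicates 1 to 3, and none had overlapping groups. Serpina3n, a secreted serine protease inhibitor that reactive astrocytes make, had 16569.8, 16315, 16271, 15503 and 15440.3 on the transformed arrays, against 381, 160.3, 28.5, 50.9 and 126 on the control arrays. Wfdc18, a small secreted protein with a whey acidic protein domain, had 18611, 18288, 17796, 18029 and 19151, against 15.8, 37.7, 115, 18.3 and 41.6 on the control arrays. Neither was above background on every control array, Serpina3n on 2 and Wfdc18 on none, and the rise of Wfdc18 was at least 124-fold (adjusted p = 1.85e-11). Syt4, a synaptotagmin of secretory vesicles, had 49769.6, 48706, 46267, 43505 and 44334 on the transformed arrays, against 439, 579.5, 179, 244 and 542 on the control arrays, which is 6.94 ± 0.45 on the log2 scale (adjusted p = 3.59e-11). Pth2r, the receptor for the peptide TIP39, had 8351, 8164, 9037, 8689 and 9119.5, against 53.6, 158, 123, 24.1 and 107 on the control arrays, where 1 array was above background. All 4 were bright and even across the transformed arrays, and near background or a little above it in control cells.

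Ddit3, which encodes the stress transcription factor CHOP, had 28563, 32229, 32751, 30168 and 32356 on the transformed arrays, against 2183, 3195, 2437, 3289.9 and 3354 on the control arrays, a rise of 3.44 ± 0.12 (adjusted p = 3.81e-15). Unlike the 4 genes above, it was well above background in every control array. Cdkn2a, whose locus encodes the inhibitor p16INK4a and the p53 activator ARF, had 15886, 17429, 19481, 15609 and 17527, against 399, 808, 1104, 422 and 352 on the control arrays, a rise of 4.90 ± 0.24 (adjusted p = 3.84e-13). The array has 1 probe set for this gene, which cannot tell the 2 products apart.

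The 2 markers that fell were at or near background in transformed cells. Cdkn1c, the cyclin kinase inhibitor p57 and an imprinted gene, had 82.7, 97.7, 41.8, 60.6 and 51.4 on the transformed arrays, against 3832, 4269, 4480.2, 8969 and 10048 on the control arrays. It was below background on all 5 transformed arrays, at least 39.4-fold lower (adjusted p = 5.57e-15), and the 2 highest controls were replicates 4 and 5. Cav1, the main coat protein of caveolae, had 144, 22.2, 113, 200 and 72.3 on the transformed arrays, of which 1 was above background, against 3769, 4949, 3528, 6858 and 6665 on the control arrays (adjusted p = 3.31e-12).

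**Figure D2:**
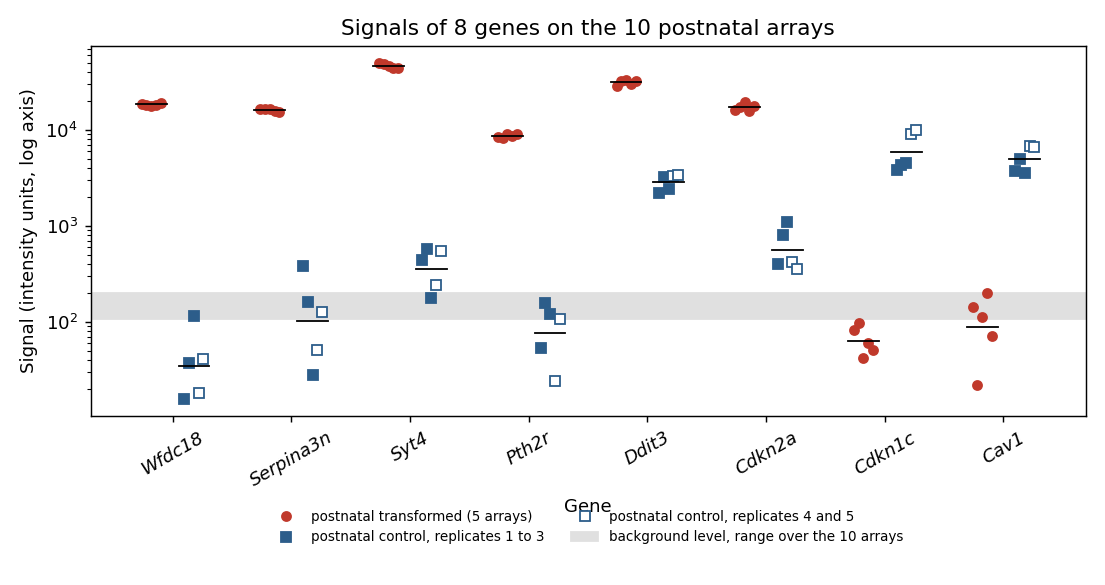
Signal (log axis) of the 8 marker genes on the 5 transformed arrays (red circles, left of each pair) and the 5 control arrays (blue squares; open for replicates 4 and 5), with the geometric mean as a line and the range of background levels in grey. The 6 genes on the left are higher on every transformed array than on any control array, and Cdkn1c and Cav1 are lower on every transformed array.

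Beyond the markers, the largest fitted rise was Mycn, a transcription factor of the Myc family, with 122763, 119285, 119549, 110307 and 114248 on the transformed arrays, against 520.2, 559.6, 314, 373 and 564 on the control arrays (7.96 ± 0.28, adjusted p = 2.78e-15). This value belongs to 1 of 3 Mycn probe sets. The other 2 were above background on all 10 arrays and averaged 2321 and 586 in transformed cells, against 1728 and 406 in control cells, changes of 0.58 ± 0.23 and 0.62 ± 0.36 that were not called. The probe sets therefore disagree on the size of the change, and which part of the transcript each reads was not analysed here. The related genes Myc and Mycl did not rise, with Myc at 8732 in transformed and 15484 in control cells (-0.77 ± 0.14, not called) and Mycl called lower (415 and 2774, above background on 4 of 5 transformed arrays).

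The next fitted rises were of unrelated kinds. Tcim averaged 11955 ± 961 in transformed and 118 ± 48.4 in control cells, where 2 arrays were above background, and Pcolce, which enhances the processing of procollagen, 13514 ± 726 and 168 ± 125, with 3 above background. P2rx3, an ATP-gated ion channel known from sensory neurons, had 27447, 28585, 28626, 26704 and 28384, against 373, 459, 349, 103 and 343 on the control arrays, 4 of them above background. Clic5, a chloride intracellular channel protein, averaged 22098 and 321, and Lpcat2, an enzyme of platelet-activating factor synthesis, 10920.1 and 179.8. Nupr1, a small stress-induced chromatin protein, was above background in every sample and averaged 32655 ± 1487 in transformed and 589 ± 336 in control cells (5.92 ± 0.41, adjusted p = 9.88e-11). Rasgef1c, a Ras-family exchange factor, was at background on all control arrays and at least 27.8-fold higher in transformed cells.

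The falls included several glial and neural signalling genes. Parvb, which links integrins to actin, was at background on all 5 transformed arrays and at least 9.66-fold lower, Grm3, a metabotropic glutamate receptor, at least 10.9-fold, the patterning factor Zic1 at least 9.37-fold and Bmpr1b, a BMP receptor, at least 9.34-fold. Pla2g7, which breaks down platelet-activating factor, had 329.9, 378, 332, 152 and 289 on the transformed arrays, against 46279, 25198, 1879, 7858 and 7925 on the control arrays. Its controls were spread widely, with the highest in replicate 1 and the lowest in replicate 3, and the groups did not overlap (-5.15 ± 0.52). Serpinh1, the chaperone of collagen in the endoplasmic reticulum, averaged 121 in transformed and 3372 in control cells, with 2 transformed arrays above background. Dmrtb1 fell by 5.35 ± 0.35, with 4 transformed arrays above background, while Sncaip averaged 72.0 and 2534 and Dusp26, a protein phosphatase, 65.6 and 1957.

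Among the regulators of the cell cycle, the inhibitors of the Cdkn2a and Cdkn2b locus rose while genes of replication fell. Of 7 inhibitors measured, 3 were called higher and 1 lower, with a median of 0.024, beside 9.56% higher, 6.4% lower and a median of -0.0024 over all genes tested. The other 3 of the list were not called. The same shares over all genes apply beside every list count that follows. Cdkn2b, which encodes p15 next to Cdkn2a, had 27002, 26697, 27311, 27151 and 27173 on the transformed arrays, against 1379, 1806, 1292, 897 and 649.9 on the control arrays (4.56 ± 0.19, adjusted p = 2.49e-14). Its transformed values were nearly equal, and all were far above the highest control. Cdkn1a, the p53-induced inhibitor p21, had 36196, 31469, 32950.3, 29034 and 37266, against 12683, 26071, 16904, 2689 and 2959 on the control arrays (1.96 ± 0.42). The groups did not overlap, but the low values of control replicates 4 and 5 set the size of the change, which was 0.90 and not called against replicates 1 to 3. Cdkn1b, p27, averaged 15017 in transformed and 14806 in control cells (0.024 ± 0.091).

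Of 14 cyclins, kinases and retinoblastoma family genes of the G1 phase, 2 were called higher and 6 lower (median -0.68), and 1 and 9 against control replicates 1 to 3. The 2 that rose were D cyclins. Ccnd2 had 107728, 101954, 99207, 99639 and 96171 on the transformed arrays, against 30579, 52139.8, 36773, 23565 and 21934 on the control arrays (1.69 ± 0.16, adjusted p = 1.18e-08), and Ccnd1 averaged 101536 ± 4239 and 40001 ± 17647 (1.47 ± 0.20). Against control replicates 1 to 3 the change of Ccnd1 was 0.98, just short of a call, and that of Ccnd2 1.38, still called. Their kinase partners were lower. Cdk4 had 21952, 21581, 20284, 19718 and 19436, against 46574, 39991, 47396, 41919 and 42977 on the control arrays (-1.09 ± 0.066, adjusted p = 1.11e-11), and Cdk6 fell by 1.02 ± 0.12, a call that its other 2 probe sets, at -0.95 ± 0.16 and -0.098 ± 0.45, did not share. All 5 control arrays of Cdk4, replicates 4 and 5 included, lay close together. Rb1, which encodes the retinoblastoma protein, had 3315, 3679, 3609, 3495 and 3774, against 11452, 11692, 10350.3, 9226 and 7855 on the control arrays (-1.48 ± 0.09, adjusted p = 1.27e-11). Ccne1, the S phase cyclin E1, averaged 808 and 3264 (-1.91 ± 0.20).

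Of 19 mitosis genes 15 were called lower and 0 higher (median -1.25), and of 20 DNA replication genes 13 and 0 (median -1.18). Against control replicates 1 to 3 alone, all 19 and all 20 were called lower, with medians of -2.45 and -1.95. Without control replicate 1, 2 or 3 in turn, 7 mitosis genes were called lower in each case. Mcm7, a subunit of the replicative helicase, had 15592, 14736, 13896, 13744 and 12985, against 55950.2, 52261, 56298, 20596 and 20184 on the control arrays (-1.38 ± 0.23). The transformed arrays of Mcm7 lay below every control array, also below replicates 4 and 5, unlike most genes of these lists. The groups did not overlap for 6 of the 20 replication and 0 of the 19 mitosis genes, beside 32.2% of all genes. Set from the mean of the 5 controls, the mitosis median was -1.40 to -1.16 on the transformed arrays. On control replicates 4 and 5 it was lower, at -1.70 and -1.80. The replication median was -1.29 to -1.06 on the transformed arrays, and -1.24 and -1.33 on those 2 controls. Mki67, given above, overlapped with control replicate 5 (-1.88 ± 0.44, and -3.01 against replicates 1 to 3). Proliferation itself was not measured here.

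The targets of p53 moved both ways. Of 17 measured, 3 were called higher and 5 lower, and 1 and 5 against control replicates 1 to 3. The median of the fitted changes was -0.68, and -0.24 without control replicate 3. With genes at background at their bound it was -0.17, so genes near background set much of its size. Gadd45a, a growth arrest and DNA damage gene, rose by 2.01 ± 0.22. Eda2r, a receptor of the tumour necrosis factor family, had 964, 920, 978, 794 and 774, against 5959.6, 8347, 7619, 3675 and 3781 on the control arrays (-2.63 ± 0.18, adjusted p = 9.59e-11). Zmat3 fell by 1.35 ± 0.087 and Aen, an apoptosis-enhancing nuclease, by 1.47 ± 0.12, with Btg2 also lower (-1.47 ± 0.15).

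Ezh2, the methyltransferase of Polycomb repressive complex 2, had 4243, 4719.5, 4738, 5328 and 4795 on the transformed arrays, against 23275, 23622, 23689, 13217 and 11455 on the control arrays (-1.93 ± 0.16, adjusted p = 1.24e-09). The groups did not overlap, and control replicates 4 and 5 lay between the others and the transformed arrays. Of 19 Polycomb, methylation and deacetylase genes, 1 was called higher, the deacetylase Hdac9 (1.80 ± 0.12), and 4 lower (median -0.28, and 2 and 5 against control replicates 1 to 3), among them the DNA demethylase Tet1 (-1.91 ± 0.20). The other core subunits of the complex, Eed (-0.038 ± 0.069) and Suz12 (-0.28 ± 0.069), were not called.

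**Figure D3:**
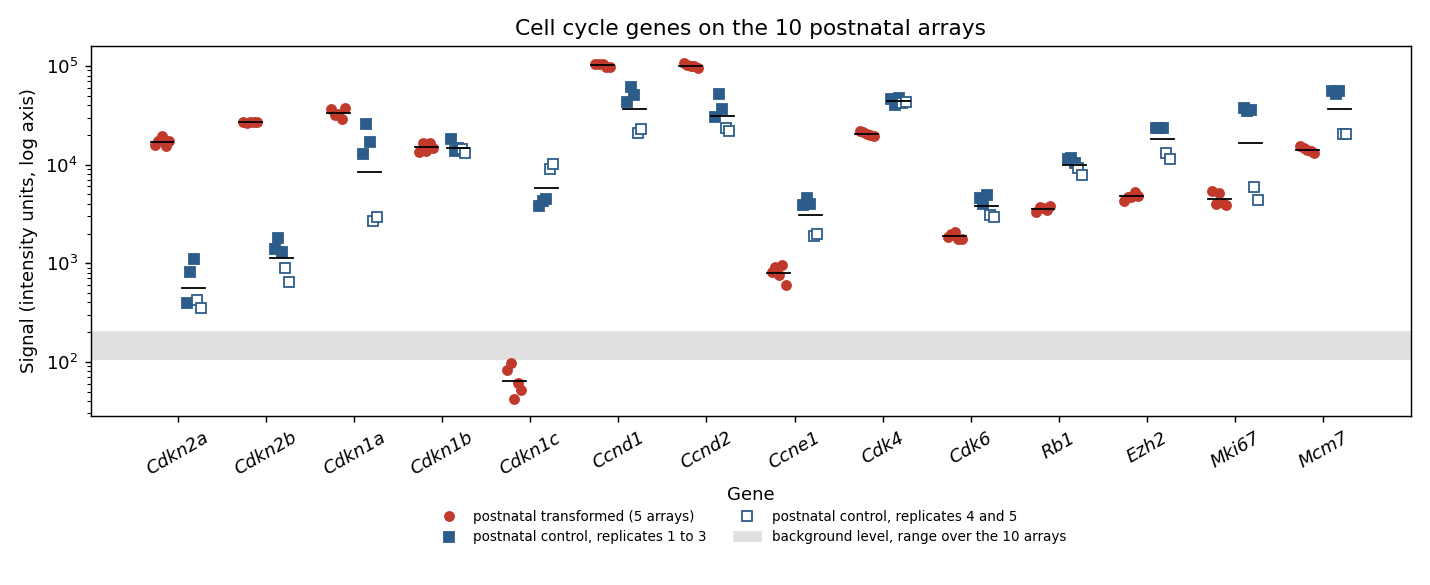
Signal (log axis) of 14 cell cycle genes on the 5 transformed arrays (red circles, left of each pair) and the 5 control arrays (blue squares; open for replicates 4 and 5), with geometric means as lines and background in grey. Cdkn2a and Cdkn2b are higher, and Cdkn1c, Cdk4, Rb1 and Ezh2 lower, on every transformed array than on any control array, while Mki67 and Mcm7 split the controls into replicates 1 to 3 and replicates 4 and 5.

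Of 19 genes of ATF4 and of the unfolded protein response, 11 were called higher and 0 lower (median 1.45), the same counts as against control replicates 1 to 3. Trib3, a pseudokinase that dampens ATF4, had 23142, 23754, 19364, 24908 and 24486 on the transformed arrays, against 646, 1559, 729, 678 and 519.6 on the control arrays (4.89 ± 0.33, adjusted p = 6.79e-11). Chac1, which degrades glutathione, had 22228, 22180.3, 22176, 21291 and 21884, against 2227, 4399.6, 2925, 1964 and 1854 on the control arrays (3.11 ± 0.18, adjusted p = 3.78e-12). For both the highest control was replicate 2, and no groups overlapped. Atf4 itself averaged 70825 ± 3366 in transformed and 20753 ± 4211 in control cells (1.79 ± 0.10), Atf5, a related factor, 17276 ± 974 and 2646 ± 992 (2.79 ± 0.19), and Asns, which makes asparagine, 64135 ± 1959 and 23460.3 ± 4603 (1.47 ± 0.089). Ppp1r15a, which restarts translation, rose by 2.26 ± 0.13, Herpud1, of endoplasmic reticulum protein degradation, by 1.45 ± 0.075 and Cebpb, a transcription factor, by 3.20 ± 0.30.

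The chaperone arm of the list behaved differently. Hspa5, the endoplasmic reticulum chaperone BiP, averaged 56237 ± 3322 in transformed and 60494 ± 3001 in control cells (-0.11 ± 0.059, adjusted p = 0.167). Xbp1, the transcription factor of the IRE1 branch, averaged 24607 ± 1289.9 and 23709 ± 3064 (0.061 ± 0.082). Hsp90b1 (-0.37 ± 0.095), Pdia4 (-0.41 ± 0.10) and Sdf2l1 (-0.69 ± 0.12), 3 other folding proteins, were below their controls by less than 2-fold and were not called.

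Of 12 genes of a list named serine and 1-carbon metabolism, 7 were called higher and 2 lower (median 1.22, and 6 and 2 against control replicates 1 to 3). The 7 include the carrier Slc1a4, which is counted again among the amino acid transporters below. Psph, the cytosolic enzyme of the last step of serine synthesis, had 49159.6, 49793, 43860.5, 51118 and 47022 on the transformed arrays, against 10162, 13981, 13051, 10215 and 8762 on the control arrays (2.12 ± 0.094, adjusted p = 8.13e-14). The mitochondrial enzymes Aldh1l2 (2.40 ± 0.073), Mthfd2 (2.39 ± 0.16), Mthfd1l (1.83 ± 0.18) and Shmt2 (1.33 ± 0.13) were all called higher, also against control replicates 1 to 3. The 2 lower genes were the cytosolic Mthfd1, at 6394, 5683, 5370.4, 6054 and 5334 against 14134, 14520.1, 12671, 10932 and 11176 on the control arrays (-1.13 ± 0.087), and Shmt1 (-1.35 ± 0.30). Shmt1 had values of 4700.1, 5918, 5649.8, 1362 and 1546 on the control arrays, so replicates 4 and 5 again lay near the transformed mean of 1248.

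Of 15 aminoacyl-tRNA synthetases, which charge tRNA, 6 were called higher and 0 lower (median 0.90), and 3 were higher against control replicates 1 to 3, where the changes of Aars, Cars and Sars lay between 0.93 and 0.99. Tars had 20401, 19955, 20805, 19911 and 19508, against 8330.2, 10237, 8434, 6871 and 8641 on the control arrays (1.25 ± 0.081, adjusted p = 3.09e-11), and Rars averaged 40068 ± 1595 and 18293 ± 2224 (1.14 ± 0.068). Another 3 members, Lars (0.94 ± 0.067), Nars (0.86 ± 0.065) and Gars (0.83 ± 0.063), had an adjusted p below 0.05 but less than 2-fold, whereas Kars was below its controls (-0.62 ± 0.056).

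Of 12 amino acid transporters, 8 were called higher and 1 lower (median 1.63, and 7 and 1 against control replicates 1 to 3). Slc7a11, the cystine and glutamate exchanger, had 3306, 2967, 3279.5, 3069 and 3366 on the transformed arrays, against 806, 503, 141, 258 and 127 on the control arrays, 4 of them above background (3.40 ± 0.34, adjusted p = 3.21e-08). Slc7a5, a carrier of large neutral amino acids, had 28517, 31529.9, 29557, 31775 and 30831, against 5002, 9257, 4874, 2615 and 2614 on the control arrays (2.80 ± 0.23), and its partner chain Slc3a2 rose by 1.95 ± 0.15. In both Slc7a5 and Slc3a2 control replicates 4 and 5 were the lowest. The glycine carrier Slc6a9 (1.99 ± 0.089) and the neutral amino acid carrier Slc1a4 (2.03 ± 0.10) rose to a similar degree.

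**Figure D4:**
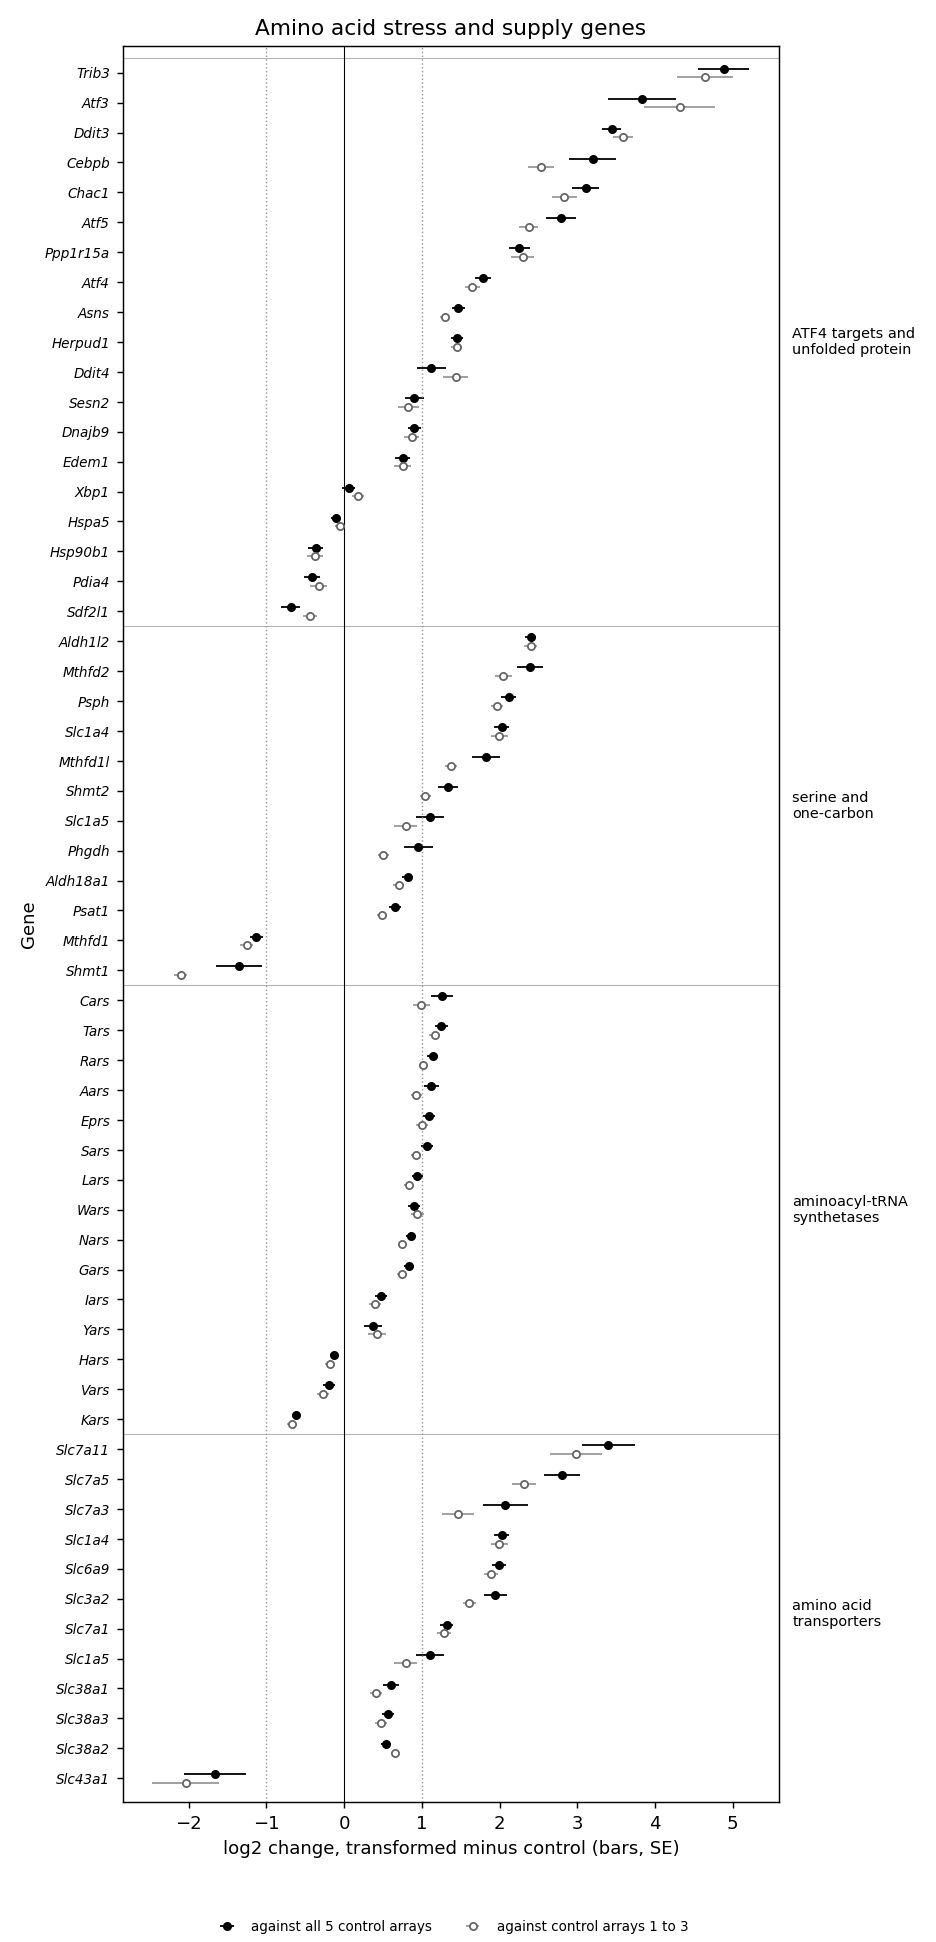
Log2 change, transformed minus control on the log2(signal + 16) scale, of the measured members of 4 lists of amino acid stress and supply (rows), against all 5 controls (filled) and against control replicates 1 to 3 (open); bars are the SE of the fit and dotted lines mark 2-fold. Trib3 lies furthest to the right, the chaperones Hspa5 and Sdf2l1 lie near or below 0, and Shmt1 and Mthfd1 are the 2 lower genes of 1-carbon metabolism.

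ATF4 binds with C/EBP factors to an element whose letters were searched here as TGATGNAA, on both strands, in the 300 bases around each start site, 250 before and 50 after, taken from RefSeq on GRCm38.p6. It was present at 468 of 14452 measured genes with a window (3.24%). Among list members with a window, it was at 5 of 19 genes of the ATF4 list, 5 of 8 aminoacyl-tRNA synthetases and 2 of 7 amino acid transporters. In the serine and 1-carbon list it was at 1 of 10, the carrier Slc1a4, which is also 1 of those 2 transporters. Genes of the ATF4 list with the letters were all called higher, but so were members without them, such as Atf4 and Atf5. Among the synthetases with the letters, Aars and Tars were called higher with all 5 controls, and Gars, Iars and Yars were not. Eprs and Sars were called higher without them. The windows of 4 genes called higher, chosen with their values known, are shown because they hold the match, in capitals, written from 5′ to 3′ on the gene's strand. They are Trib3 (chr2:152344011-152344310, minus strand), Chac1 (chr2:119350992-119351291, plus strand), Atf3 (chr1:191183284-191183583, minus strand) and Slc7a11 (chr3:50443564-50443863, minus strand), the last with 2 matches.
Trib3: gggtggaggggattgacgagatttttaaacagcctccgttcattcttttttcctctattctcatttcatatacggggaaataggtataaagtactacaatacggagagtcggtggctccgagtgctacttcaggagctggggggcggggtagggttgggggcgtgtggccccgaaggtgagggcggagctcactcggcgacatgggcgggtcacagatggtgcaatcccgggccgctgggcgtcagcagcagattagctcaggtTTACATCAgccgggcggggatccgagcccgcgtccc
Chac1: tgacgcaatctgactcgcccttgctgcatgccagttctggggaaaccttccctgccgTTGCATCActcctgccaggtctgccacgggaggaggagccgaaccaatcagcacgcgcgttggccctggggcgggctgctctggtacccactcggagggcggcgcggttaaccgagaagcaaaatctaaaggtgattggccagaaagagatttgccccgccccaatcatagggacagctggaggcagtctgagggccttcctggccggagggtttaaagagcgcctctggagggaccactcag
Atf3: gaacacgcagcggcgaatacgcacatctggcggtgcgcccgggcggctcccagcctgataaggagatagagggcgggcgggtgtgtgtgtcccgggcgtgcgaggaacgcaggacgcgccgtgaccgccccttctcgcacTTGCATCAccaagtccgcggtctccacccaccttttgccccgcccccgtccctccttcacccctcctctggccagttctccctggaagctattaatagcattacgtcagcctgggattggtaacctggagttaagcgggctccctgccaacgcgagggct
Slc7a11: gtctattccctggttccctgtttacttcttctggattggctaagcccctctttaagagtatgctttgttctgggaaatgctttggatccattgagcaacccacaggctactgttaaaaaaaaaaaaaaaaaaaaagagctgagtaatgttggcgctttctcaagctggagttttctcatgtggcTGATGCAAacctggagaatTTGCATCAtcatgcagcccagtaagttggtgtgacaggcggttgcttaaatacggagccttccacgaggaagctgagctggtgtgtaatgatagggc
The window of Ddit3, which rose by 3.44 ± 0.12, does not hold these letters. A match is a run of letters and not a measured binding site.

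Atf3, a stress-induced repressor in that set, had 2772, 3115, 2847, 3019 and 3353 on the transformed arrays, against 59.0, 358, 108, 351 and 325 on the control arrays, where 3 arrays were above background (adjusted p = 1.97e-07). Its control arrays were uneven, with replicate 1 the lowest, and all lay far below the transformed ones.

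Of 13 antioxidant genes driven by NRF2, 6 were called higher and 0 lower (median 0.81, 0.64 against control replicates 1 to 3), Slc7a11 among them. The list median, set from the mean of the 5 controls, was 0.76 to 0.85 on the transformed arrays. On control replicates 1 and 2 it was nearly as high, 0.63 and 0.68, and on replicates 3 to 5 it was -0.17, -0.41 and -0.53. Me1, the malic enzyme that supplies NADPH, had 39879, 39664, 38378, 38569 and 38697, against 7735, 7025, 5859.6, 4768 and 5398 on the control arrays (2.68 ± 0.10, adjusted p = 3.41e-15). Nqo1, a quinone reductase, had 5992, 5202, 4765, 5428 and 5498, against 1401, 1176, 789, 482 and 321 on the control arrays (2.85 ± 0.26), and Hmox1, heme oxygenase, averaged 15812 ± 2273 and 2766 ± 1391 (2.64 ± 0.25). No array of the 2 groups overlapped in any of the 3 genes. Keap1, which holds NRF2 in check, changed by 0.20 ± 0.082, and the glutathione synthesis genes Gclc (0.62 ± 0.10) and Gclm (0.64 ± 0.18) by less than 2-fold. Of 12 heat shock proteins 4 were called higher and 0 lower (median 0.0013), of 13 cholesterol synthesis genes 1 and 0 (0.41, and 2 and 0 against control replicates 1 to 3), and of 13 lysosomal genes 1 and 1 (0.53).

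Astrocyte genes were called lower more often than higher. Of 18 astrocyte genes, 2 were called higher and 9 lower (median -0.90, and -1.09 against control replicates 1 to 3, with the same counts). Aqp4, the water channel of astrocyte endfeet, had 69.6, 45.3, 191, 127 and 235 on the transformed arrays, 3 of them above background, against 5181, 2707, 325, 1571 and 1579.9 on the control arrays. Gja1, the gap junction protein connexin 43, had 729.9, 816, 879, 849 and 949, against 55701, 33002, 1344, 4372 and 3948 on the control arrays (-3.30 ± 0.63, adjusted p = 0.000153). In both genes control replicate 3 was the lowest control, and replicates 1 and 2 the highest. Aldh1l1, a folate enzyme that marks astrocytes, averaged 223 ± 13.5 in transformed and 2752 ± 1293 in control cells (-3.38 ± 0.31), Slc4a4, a bicarbonate transporter, 406 ± 85.2 and 4421 ± 1844 (-3.27 ± 0.25), and Ntsr2 fell by 2.56 ± 0.43. Gfap, the intermediate filament of astrocytes, had 35, 368, 197, 431 and 366, against 21873, 2843, 318, 976 and 1163 on the control arrays, and the groups overlapped (-3.01 ± 0.80, with 4 transformed arrays above background). Sox9, a transcription factor of gliogenesis, had 1258, 668, 1191, 809 and 937, against 9089, 9179, 9313, 3119 and 2635 on the control arrays (-2.59 ± 0.28, adjusted p = 1.04e-07).

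The summed signal of the astrocyte list ran from 209774 to 217451 on the transformed arrays, against 119369 to 356441 on the control arrays. Aldoc, which rose, averaged 91162 and 41563 and weighs heavily in it. The list median, set from the mean of the 5 controls, was -1.14 on control replicate 3. On control replicates 1, 2, 4 and 5 it was 0.74, 0.42, -0.079 and -0.14. The transformed arrays ran from -1.21 to -0.65, so control replicate 3 lay within their range. How far a varying share of astrocytes in the control samples enters these differences was not tested. The 2 that rose were S100b, a calcium-binding protein found in astrocytes and in oligodendrocyte lineage cells, and Aldoc, the brain form of aldolase. S100b had 27401, 28152, 25129, 26901 and 25598, against 3184, 2696, 1591, 20293 and 23080.2 on the control arrays (2.20 ± 0.51, and 3.47 against replicates 1 to 3), so replicates 4 and 5 came close to the transformed arrays. Aldoc had 92665, 91687, 93799, 89158 and 88499, against 44757, 41914, 40649, 43009 and 37483 on the control arrays (1.14 ± 0.069), with little spread in either group.

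Of 17 oligodendrocyte progenitor genes, 1 was called higher, Susd5 (1793 in transformed and 155 in control cells, with 3 controls above background), and 3 lower (median -0.45). Against control replicates 1 to 3, 2 were higher and 3 lower (median -0.23). Gpr17, a receptor of progenitors about to differentiate, had 2933, 2307, 3319, 2887 and 3268 on the transformed arrays, against 22012, 6777, 13443, 67318 and 69477 on the control arrays (-3.08 ± 0.54, adjusted p = 5.66e-05). Sox8, a factor related to Sox10, had 1456, 1940.2, 2157, 1491 and 1812, against 14220.1, 6694, 8709.8, 18123 and 20948 on the control arrays (-2.83 ± 0.21), and Nkx2-2, needed for oligodendrocyte differentiation, fell by 1.99 ± 0.30. In all 3 the control maximum was in replicates 4 and 5, and every call held without them. Sox10, Cspg4, Olig1 and Ptprz1 were not called. Of 15 myelin genes 5 were called lower and 1 higher (median -0.42, -0.045 with genes at background at their bound). Against control replicates 1 to 3, 1 was lower and 2 higher. Mbp, myelin basic protein, had 838, 732, 1223, 1119.6 and 1136, against 1592, 1443, 1546, 6055 and 6971 on the control arrays. The change of this probe set was -1.45 ± 0.36 with all controls and -0.61, not called, with the first 3. The other 7 Mbp probe sets were also called lower with all controls, by 1.39 to 6.40 on the log2 scale. They averaged 47.0 to 432 in transformed cells, 1 of them at background on every array, against 1145 to 22035 in control cells. The probe sets thus disagree on the size of the fall, and the others were not set against the first 3 controls alone. Without control replicate 4, 3 myelin genes were lower.

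Of 16 radial glia and stem cell genes, 4 were called higher and 5 lower (median -0.39, and 2 and 6 against control replicates 1 to 3). Prom1, which encodes the stem cell surface protein CD133, averaged 123 in transformed and 2228 in control cells, with 1 transformed array above background. Hes5, a target of Notch, had 369, 711, 658, 641 and 778, against 10888, 5629, 4039, 12059.6 and 12508 on the control arrays (-3.71 ± 0.27, adjusted p = 2.55e-10), while Hes1 rose by 1.43 ± 0.28 and Sox3 fell by 1.57 ± 0.089. Nes, the intermediate filament nestin, had 5574, 6638, 8503, 6133 and 7429, against 4095, 4640.5, 4829, 1705 and 648 on the control arrays (1.42 ± 0.36). The groups did not overlap, but against replicates 1 to 3 the change was 0.59 and not called. A dimmer Nes probe set changed by 0.99 ± 0.34 and missed the 2-fold threshold.

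Of 10 genes known from Schwann cells and the neural crest, 6 were called higher and 1 lower, the same counts against control replicates 1 to 3. The median was 1.65, and 1.25 with genes at background at their bound. Erbb3, a neuregulin receptor, had 9614, 9201, 9281, 9449 and 9786 on the transformed arrays, against 281, 222, 462, 617 and 707 on the control arrays (4.45 ± 0.32, adjusted p = 1.45e-10). Cdh19, a cadherin of Schwann cell precursors, had 9241, 9681, 9593, 9769.7 and 8948, against 741, 1223, 2324, 985 and 948 on the control arrays (3.03 ± 0.26), and Pmp22, a peripheral myelin protein, averaged 32946 ± 1394 and 7383 ± 4064 (2.37 ± 0.26). Tfap2a, a neural crest factor, rose by 1.83 ± 0.22 and Gap43, a growth cone protein, by 1.47 ± 0.14. Egr2, the factor that drives Schwann cell myelination, went the other way, with 514, 721, 959.6, 911 and 647, against 5183, 7197, 7987, 4960.1 and 3636 on the control arrays (-2.90 ± 0.20). The summed signal of this list ran from 125160 to 134680 on the transformed arrays, against 53127 to 67642 on the control arrays. The label of these cells is brain, and Sox10 was bright in both groups (25251 in transformed and 25363 in control cells).

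**Figure D5:**
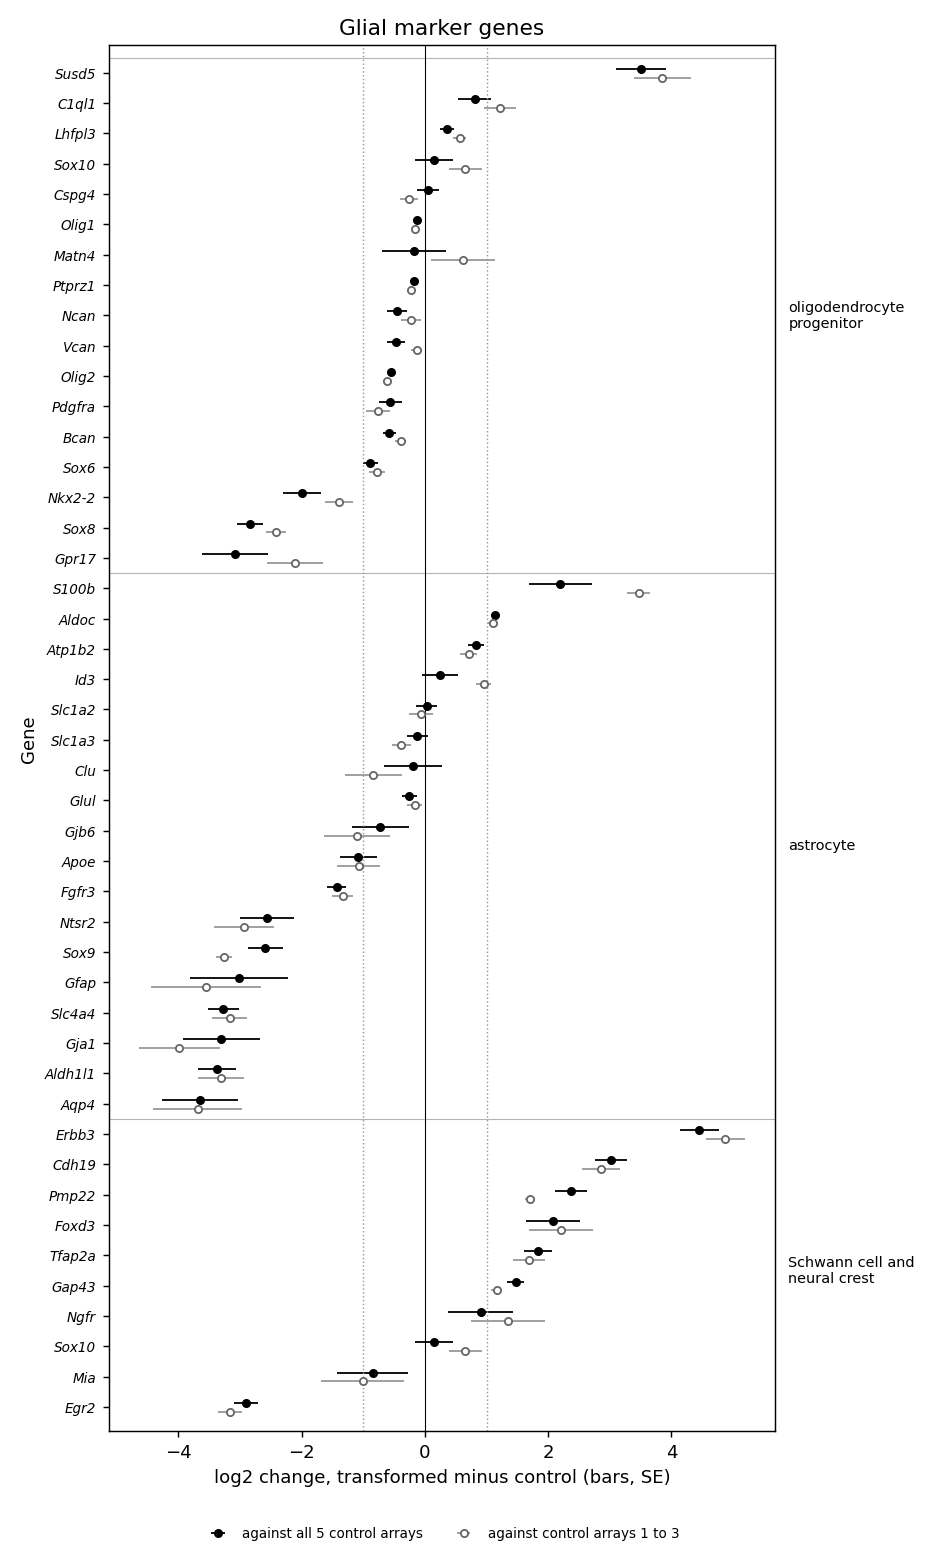
Log2 change, transformed minus control on the log2(signal + 16) scale, of the measured members of 3 glial marker lists (rows), against all 5 controls (filled) and against control replicates 1 to 3 (open); bars are the SE and dotted lines mark 2-fold. Most astrocyte genes with a call lie to the left, from Fgfr3 to Aqp4, the oligodendrocyte progenitor genes cluster near 0 apart from Susd5, Gpr17, Sox8 and Nkx2-2, and Erbb3, Cdh19 and Pmp22 lie to the right. Aqp4, Foxd3, Gjb6, Mia and Susd5 were above background on 3 or fewer arrays of a group, so their positions are not exact.

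Some genes of other cell types were at background in both groups, namely 4 of 15 microglia and macrophage genes and 2 of 15 endothelial and pericyte genes. Of the 15 fibroblast genes 0 were. Of 15 microglia and macrophage genes 3 were called higher, P2ry12, Cd68 and Fcer1g, while Aif1, Itgam, C1qa and C1qc were below background on all 10 arrays. The call of Fcer1g was lost against control replicates 1 to 3, and the summed signal of the list ran from 3448 to 4264 on the transformed arrays, against 1590.1 to 2521 on the control arrays. P2ry12, an ADP receptor, averaged 1364 in transformed and 166 in control cells (2.93 ± 0.44, with 5 transformed arrays and 4 controls above background). Of 15 endothelial and pericyte genes 2 were called higher and Pecam1 was below background throughout. These calls were not stable: the count was 0 without transformed replicate 3 or 4, and 1 without transformed replicate 1 or 2 or any of control replicates 1 to 4. Of 15 fibroblast genes 4 were called higher, and of 16 neuronal genes 3 were higher and 3 lower (median -0.049, and 3 and 2 against control replicates 1 to 3). The fibroblast genes that rose were the transcription factors Prrx1, Twist1 and Foxc1 and the growth factor Igf2, whereas the collagens Col1a1 and Col3a1 were at or near background in both groups. The summed signal of the fibroblast list ran from 30032 to 31583 on the transformed arrays, against 3488 to 10456 on the control arrays. Most of the transformed sum was Prrx1 alone, which averaged 24169 there and 1945 in control cells. The list median was 0.34, 0.15 against control replicates 1 to 3, and 0 with genes at background at their bound. Prrx1 had 24876, 23739, 24227, 24155 and 23845, against 2202, 3024, 2496, 962 and 1040.5 on the control arrays (3.77 ± 0.23, adjusted p = 1.1e-11).

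Ligands and receptors of the TGF-beta family moved both ways. Of 19 genes 6 were called higher and 4 lower (median -0.21, and 7 and 4 against control replicates 1 to 3). Among the ligands, Tgfb2 had 10263, 10541, 10063, 9609.7 and 11512 on the transformed arrays, against 1812, 1959.6, 799, 924 and 889.5 on the control arrays (3.11 ± 0.19, adjusted p = 1.23e-11), and Tgfb1 was at background in the controls and at least 8.24-fold higher. Bmp7 rose by 1.70 ± 0.20. Bmp4 instead had 280.1, 280.2, 214, 196 and 81.2, against 1442, 1020.4, 752, 20760.2 and 22945 on the control arrays, so that control replicates 4 and 5 were far above the other controls (-4.07 ± 0.78 with 4 transformed arrays above background, and -2.32, still called, against replicates 1 to 3). Among the receptors, the ligand-binding Tgfbr2 had 5069, 4487, 5503, 5252 and 5267, against 416, 365, 234, 255 and 318 on the control arrays (3.97 ± 0.15, adjusted p = 9.64e-15). Its signalling partner Tgfbr1 had 3271, 3029, 3106, 3183 and 3069.7, against 10008, 9337, 9874, 10776 and 9288 on the control arrays (-1.65 ± 0.061, adjusted p = 5.55e-15). One receptor subunit was thus higher and the other lower on every transformed array. Id1, a direct BMP target, fell by 2.47 ± 0.29, while Id2 (-0.35 ± 0.11) and Id3 (0.24 ± 0.29) were not called.

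In the Notch pathway, where ligands on a cell signal to its neighbour, 2 of 16 genes were called higher and 5 lower (median -0.57, the same counts against control replicates 1 to 3). The ligand Jag1 had 23425, 23477, 24578, 24235 and 22686 on the transformed arrays, against 4281, 6711, 7537, 5707 and 5777 on the control arrays (2.0 ± 0.11, adjusted p = 1.37e-12). The ligands Dll1 and Dll3 went the other way, Dll3 at 4807, 4449.7, 4197, 4128 and 4757, against 16198, 9837, 19944, 27145 and 25985 on the control arrays (-2.06 ± 0.20), and Dll1 at -1.57 ± 0.10. Lfng, a glycosyltransferase that modifies the receptor, fell by 1.80 ± 0.23 and the receptor Notch1 was below its controls by less than 2-fold (-0.85 ± 0.12).

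Among 17 Wnt genes 5 were called higher and 1 lower (median 0.29, and 4 and 2 against control replicates 1 to 3). The receptor Fzd1 rose by 1.43 ± 0.086. The secreted inhibitors Wif1 and Sfrp2 moved apart, Wif1 averaging 1393 in transformed and 139 in control cells, with 2 controls above background, and Sfrp2 174 and 1704, with 2 transformed arrays above background. Axin2, a feedback target of the pathway, was not called (-0.58 ± 0.12).

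Of 20 receptor tyrosine kinases 4 were called higher and 4 lower (median 0.17). Axl, the receptor of Gas6, had 6141, 6026, 6088, 5678 and 6623, against 1058, 1015, 404, 468 and 499.5 on the control arrays (3.23 ± 0.20, adjusted p = 1.9e-11), and Insr, the insulin receptor, rose by 1.39 ± 0.094, a call that 1 of its other 2 probe sets, at 0.66 ± 0.27, did not share. For Egfr, often amplified in glioma, the probe sets disagreed. The one taken for the gene had 1128, 1451, 1543, 1545 and 1922, against 2946, 3639.6, 1821, 1618 and 1441 on the control arrays, and the groups overlapped (-0.52 ± 0.19, not called). Of the 5 others measured, 3 were called lower. They averaged 67.6, 64.8 and 415 in transformed cells, with 0, 1 and 5 arrays above background, against 7442, 2947 and 1031 in control cells. Erbb4 was at background on every transformed array, at least 1.73-fold lower, while its relative Erbb3, given above, rose. Of 17 growth factors 5 were called higher and 1 lower (median 0.19). Fgf1 had 19108, 18982, 19409, 17395 and 18015, against 1717, 1463, 621, 984 and 889 on the control arrays (4.10 ± 0.17, adjusted p = 3.88e-14), Vegfa, the main vascular growth factor, rose by 1.91 ± 0.18, and Fgf13, an intracellular member of the family, fell by 2.40 ± 0.21.

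Downstream, of 16 genes of ERK feedback and its ETS factors 9 were called higher and 3 lower (median 1.36, and 8 and 3 against control replicates 1 to 3). Dusp4, an ERK phosphatase, had 13932, 12435, 14628, 13308 and 13452, against 495, 913, 689, 506 and 468 on the control arrays (4.47 ± 0.13, adjusted p = 6.24e-17). The immediate early gene Egr1 had 12570, 14951, 18275, 13897 and 10893, against 56136, 61305, 73933, 54138 and 56062 on the control arrays (-2.11 ± 0.12, adjusted p = 2.36e-12), and Egr3 fell by 2.72 ± 0.36, with Egr2, given above, likewise lower. The feedback inhibitor Spry4 rose by 2.41 ± 0.26.

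Of 14 genes of caveolae and of the annexins, which bind membranes in the presence of calcium, 11 were called higher and 1 lower (median 1.69, and 10 and 2 against control replicates 1 to 3). Anxa2 had 17494, 17186, 17481, 15863 and 17065 on the transformed arrays, against 866, 896, 614, 1301 and 754 on the control arrays (4.28 ± 0.14, adjusted p = 1.1e-15), and its partner S100a10 28366, 30832, 30258, 29143 and 27607, against 9593, 12527, 9787, 2340 and 1928 on the control arrays (2.39 ± 0.36). Anxa5 rose by 2.96 ± 0.25 and Anxa6 by 2.40 ± 0.40. For S100a10 and Anxa6 the lowest controls were replicates 4 and 5, and the calls held without them. Cav2, the partner of Cav1 in the coat, had 34500.3, 35064, 36395, 34715 and 32201, against 4698, 7631, 5013, 6509.7 and 6334 on the control arrays (2.54 ± 0.11, adjusted p = 6.37e-14). It thus moved against Cav1, which fell. A second Cav2 probe set read 454 in transformed and 413 in control cells and was not called.

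Integrin chains moved both ways. Of 18 integrins and adhesion receptors 7 were called higher and 2 lower (median 0.97, 0.79 with genes at background at their bound). Cd44, the hyaluronan receptor, had 14459, 15245, 16537, 17262 and 18788, against 1182, 1457, 531, 389.7 and 350.3 on the control arrays (4.60 ± 0.27, adjusted p = 6.88e-12). The chains Itgav (1.53 ± 0.083) and Itga4 (3.07 ± 0.30) rose, and Itga6, a laminin receptor chain, had 2585, 2638, 2744, 2533 and 2427, against 6313, 7377, 5301, 7147 and 6197 on the control arrays (-1.31 ± 0.075, adjusted p = 4.58e-12). Among matrix genes, Sparc rose by 4.13 ± 0.17 (a dim other probe set read 266 in transformed and 365 in control cells), Tnc, tenascin C, by 2.81 ± 0.16 and Lama4, a laminin chain, by 4.25 ± 0.38, within a list of which 8 of 19 were higher and 2 lower (median 0.061, and 8 and 1 against control replicates 1 to 3). Adamts1, a protease of the matrix, had 25904, 23850.2, 26378, 24191 and 25230.2, against 2343, 3206, 3324, 2227 and 2252 on the control arrays (3.25 ± 0.10, adjusted p = 4.03e-16). Of 15 metalloproteases 6 were higher and 0 lower, and 4 and 2 against control replicates 1 to 3. Their median was 0.87, and 0.52 with genes at background at their bound. Of 16 protease inhibitors 9 were called higher and 1, Serpinh1, lower (median 1.26). Serpinf1, a secreted anti-angiogenic serpin, rose by 3.94 ± 0.18 and Timp2 by 1.20 ± 0.10.

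Of 18 chemokines and cytokines 12 were called higher and 0 lower (median 1.21, 1.13 with genes at background at their bound), with 10 higher against control replicates 1 to 3, and 4 were at background in both groups. Of the immune cell markers, Aif1, Itgam and C1qa were below background on all 10 arrays, while P2ry12 and Cd68, given above, were called higher. Il33, an alarmin, had 7211, 8197, 8338, 7702 and 8420.3 on the transformed arrays, against 503, 235, 247, 121 and 31.2 on the control arrays, 3 of them above background (adjusted p = 7.53e-10). Ccl5 was at background in all controls and at least 8.35-fold higher, and Cxcl10, an interferon-induced chemokine, had 1230.4, 1364, 1390.3, 1415 and 1604, against 208, 47.0, 31.1, 147 and 24.4 on the control arrays, where 1 was above background. These genes were each higher on all 5 transformed arrays than on any control array.

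The interferon list had 14 of 18 genes called higher and 0 lower (median 2.71, 2.34 with genes at background at their bound), and 13 higher against control replicates 1 to 3. Ifi35 had 15788, 15464, 15648, 14583 and 15789.9, against 315, 218, 263, 183 and 199 on the control arrays (5.97 ± 0.15, adjusted p = 7.98e-18). Ddx58, which encodes the RNA sensor RIG-I, had 4262, 3959.5, 4402, 4378 and 4608, against 705, 850.3, 748, 463 and 468 on the control arrays (2.75 ± 0.14). The 2 groups stood apart in both, but the members differed, since Mx1, at 115 in transformed and 108 in control cells and near background in both, was not called. Of 12 MHC class I genes 9 were higher and 0 lower (median 1.72, and 8 and 0 against control replicates 1 to 3). Interferon-activated factors bind an element whose core was searched as GAAANNGAA on both strands of the same windows. It occurred at 1258 of 14452 genes (8.70%), at 8 of 15 interferon genes and at 3 of 10 MHC class I genes with a window. Of these, the interferon genes Oas1a and Stat2 and the MHC class I genes Erap1 and Psme1 were not called, and the rest were called higher. Other members, such as Ifi35 and H2-K1, were called higher without it. The windows of Cxcl10 (chr5:92348840-92349139, minus strand) and of Ifit1 (chr19:34640639-34640938, plus strand), which was at background in the controls and at least 7.33-fold higher, are shown for these matches, in capitals, of which Ifit1 has 3 with the first 2 overlapping.
Cxcl10: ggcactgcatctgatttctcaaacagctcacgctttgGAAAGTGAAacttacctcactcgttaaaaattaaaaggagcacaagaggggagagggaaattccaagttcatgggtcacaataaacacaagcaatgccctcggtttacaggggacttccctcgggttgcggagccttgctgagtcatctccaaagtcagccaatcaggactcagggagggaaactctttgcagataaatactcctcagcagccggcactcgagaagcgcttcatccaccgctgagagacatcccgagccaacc
Ifit1: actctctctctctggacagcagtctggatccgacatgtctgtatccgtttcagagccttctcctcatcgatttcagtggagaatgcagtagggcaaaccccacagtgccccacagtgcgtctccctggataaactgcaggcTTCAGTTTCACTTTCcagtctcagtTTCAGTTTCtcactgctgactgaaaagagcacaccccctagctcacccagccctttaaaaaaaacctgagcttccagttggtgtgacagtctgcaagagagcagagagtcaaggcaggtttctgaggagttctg
Neither window says which factor, if any, was bound.

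Receptors and channels of the cell surface changed gene by gene. Of 12 purinergic receptors 5 were called higher and 0 lower, and 4 and 0 against control replicates 1 to 3. Their median was 0.70, and 0.20 with genes at background at their bound. Besides P2rx3, the ATP channel P2rx4 had 7476, 7042, 6643, 6243 and 6898, against 1345, 966, 1266, 2322 and 2188 on the control arrays (2.15 ± 0.20). Of 14 glutamate receptors 1 was called higher and 4 lower (median -0.43, -0.21 with genes at background at their bound). The one that rose, the AMPA receptor subunit Gria4, had 33530.4, 30584, 34520.2, 28246 and 29473, against 6379.8, 7219.8, 8567, 10271 and 11151 on the control arrays (1.87 ± 0.16, adjusted p = 1.89e-09), whereas Grm3 fell to background and the subunit Gria2 changed by -0.96 ± 0.19, short of a call. Ednrb, the endothelin receptor B of glial progenitors, had 4122, 4315, 4691, 5171 and 4256, against 56178, 45689, 39639, 45003 and 41263 on the control arrays (-3.33 ± 0.11, adjusted p = 1.27e-15). Adcyap1r1, the PACAP receptor, fell by 2.85 ± 0.18. Of the 15 hormone and peptide receptors 3 were higher and 3 lower, and 3 and 4 against control replicates 1 to 3. The list median of 0.36 was 0 with genes at background at their bound. Of the potassium and sodium channels, Kcnk2 rose by 2.46 ± 0.17 and Kcnc1 had 265, 313, 175, 197 and 233, against 3301, 4058, 3031, 2389.8 and 2516 on the control arrays (-3.61 ± 0.14, adjusted p = 1.57e-14), with 2 of 14 higher and 2 lower (median -0.11, and 2 and 4 against control replicates 1 to 3). Of 3 other Kcnc1 probe sets 2 were called lower and 1, at 0.24 ± 0.37, was not called.

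Secretion genes included Nptx1, a neuronal pentraxin, with 23640.2, 22744, 26020.3, 27169 and 25577, against 486, 1259, 1243, 1466 and 1238 on the control arrays (4.53 ± 0.20, adjusted p = 6.66e-14). Together with Syt4, Syt1 (2.02 ± 0.21) and the peptide-amidating enzyme Pam (1.01 ± 0.31, and 0.87, not called, against control replicates 1 to 3) it made up the 4 of 20 called higher. The granule protein Chga (106 in transformed and 987 in control cells, 1 transformed array above background) and the fusion protein Snap25 (-1.60 ± 0.27) were the 2 called lower. Against control replicates 1 to 3, 4 were higher and 3 lower. The list median was 0.31, and 0.019 with genes at background at their bound.

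Genes that mark position along the body axis moved both ways. Of 23 brain patterning factors 6 were called higher and 5 lower (median -0.066, and 5 and 3 against control replicates 1 to 3). Of 17 Hox genes, which are normally silent in forebrain, 9 were called higher and 0 lower, and 10 and 0 against control replicates 1 to 3. The Hox median was 1.28, and 0.65 with genes at background at their bound. Without transformed replicate 1 or 4, 3 patterning factors were lower in each case. Irx3 had 5087, 4998, 4181, 4408 and 5108 on the transformed arrays, against 14.3, 71.9, 186, 239 and 274 on the control arrays, where 3 were above background (adjusted p = 3.48e-10), and its neighbour gene Irx5 averaged 2933 and 151. The midbrain and hindbrain factor En2 averaged 1639 and 173, with 3 controls above background, and the forebrain factor Otx1 82.1 and 710.1, with 1 transformed array above background. Hoxa4 was at background in every control and at least 14.6-fold higher. The 2 probe sets of Hoxa5 disagreed on its level in control cells. One averaged 2425 in transformed and 998 in control cells (1.28 ± 0.20), the other 4501 and 19.7, at background on every control array.

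Of 20 imprinted genes 2 were called higher and 4 lower (median 0.035, and 2 and 6 against control replicates 1 to 3). Grb10, an adaptor that restrains growth receptors, had 9979, 9714, 10260.5, 9756 and 9436, against 1199, 1092, 1234, 1106 and 1009.8 on the control arrays (3.11 ± 0.11, adjusted p = 2.28e-15). Ndn, the growth suppressor necdin, had 4537, 4098, 4261, 4325 and 3823, against 34068, 31903, 33414, 30153 and 26834 on the control arrays (-2.89 ± 0.062, adjusted p = 1.33e-18). Both groups were tight in these genes, with control replicates 4 and 5 inside the range of the others or just below it. Igf2 rose to 1093 in transformed cells, against 135 in control cells, of which 2 were above background.

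Among the remaining lists, of 17 apoptosis regulators 3 were called higher and 0 lower (median 0.063, and 3 and 2 against control replicates 1 to 3), including the survival gene Bcl2l1 (5769.9, 6843, 6757, 6863 and 6676, against 2701, 2117, 2446, 2454 and 2237 on the control arrays, 1.46 ± 0.10). Small counts in these lists stand beside 9.56% higher and 6.4% lower over all genes tested. For hypoxia and glycolysis the counts were 3 and 3 of 17 (median 0.30, and 5 and 3 against control replicates 1 to 3), for collagens 7 and 0 of 17 (0.41, and 6 and 0 against control replicates 1 to 3), for complement 3 and 0 of 10 (0.22), for cadherins 2 and 3 of 16 (-0.051, and 1 and 3 against control replicates 1 to 3). For Myc target and ribosome genes they were 0 and 3 of 18 (-0.66, and 0 and 4 against control replicates 1 to 3), for the Myc network 1 and 2 of 12 (-0.30), for germline genes 0 and 2 of 13 (0.20) and for pluripotency factors 2 and 1 of 12 (0.32). With genes at background at their bound, the germline and pluripotency medians were 0. Without transformed replicate 3, 5 Myc target genes were lower.

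The choice of controls decided some calls. With all 5 controls but not with replicates 1 to 3, 270 genes were higher and 185 lower, and with replicates 1 to 3 but not with all 5, 213 were higher and 340 lower. In the last set the nucleotide enzyme Tk1 had 1468, 1388, 1317, 1299.9 and 1287 on the transformed arrays, against 8111, 9598, 10023, 673 and 787 on the control arrays (-1.30 ± 0.56 with all 5, and -2.75 with 3). The spindle gene Ska1 averaged 774 and 2865 (-1.12 ± 0.59 and -2.59). In both, control replicates 4 and 5 were far below replicates 1 to 3, as for Mki67. Higher only against replicates 1 to 3 was Ninj2, a cell surface adhesion protein, with 1231, 1279.6, 1172, 1489 and 1456, against 279.6, 68.9, 204, 1264 and 1203 on the control arrays. Lower only with all 5 was Lims2, a partner of the integrin-linked kinase, with 3261, 3391, 2542, 3100.5 and 2810.1, against 7282, 2976, 6954, 40175 and 39052 on the control arrays, where replicates 4 and 5 were far above the others.

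Some lower genes share a chromosome. Of 349 genes of chromosome 14 with a mean signal above 500, 136 were called lower (39.0%) and 13 higher, with a median of -0.86, and -0.80 against control replicates 1 to 3, while every other autosome had a median between -0.21 and 0.19. Bmp4, Rb1 and Ednrb, given above, are on this chromosome, and copy number was not measured here.

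The postnatal response was also set against the embryonic one, transduced minus control, as a difference of differences in the same model. It was called for 1702 genes on the higher side (9.36%) and 1773 on the lower (9.75%). With replicates 1 to 3 as the only postnatal controls, the counts were 1704 and 1979. This contrast also holds any difference between transformation and transduction and in the cells' origin. Of the 8 marker genes, which were chosen for the postnatal comparison, 7 differed with all 5 controls. Their differences against control replicates 1 to 3 alone were not examined. The postnatal change exceeded the embryonic one for Ddit3, which was above background on all 20 arrays, by 2.08 ± 0.18 (adjusted p = 3.87e-09). It also did so for Syt4 (7.80 ± 0.64), Pth2r (9.02 ± 0.68), Wfdc18 (8.94 ± 0.74) and Serpina3n (6.45 ± 0.69), and it was more negative for Cdkn1c (-4.73 ± 0.33) and Cav1 (-4.09 ± 0.44, adjusted p = 1.15e-07). Each of these 6 was above background on 3 or fewer arrays of at least 1 of the 4 groups, so the added 16 sets the size of their differences in part. For Cdkn2a the difference was -0.47 ± 0.34 and was not called (adjusted p = 0.31).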

How the data were processed

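The deposited values are a linear intensity for each of 45101 probe sets on 20 arrays, 5 per group. How they were normalized, and with which software, is not stated in these sources. On each array, the mean without the lowest and highest 2% of values was 2500.01 to 2500.02, so the authors' values had been scaled to a common level. All columns matched a sample, and no 2 arrays were identical. Scan dates and batches are not analysed here.

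Genes were named from the platform annotation. Of the probe sets, 34945 had 1 symbol, 932 several, 9160 none listed and 64 were controls. The brightest single-symbol probe set by mean over 20 arrays stood for each of 18193 genes, of which 9010 had more than 1. Deposited intensities were turned into log2 values after adding 16, and limma 3.58.1 (R 4.3.3, data.table version 1.17.8) fitted 4 group means with an intensity trend, with two-sided p-values adjusted by Benjamini-Hochberg across the 18193 genes. The fit was tested on simulated data. Samples were grouped by their descriptions. The number of arrays limits the precision. A gene at background on all arrays of 1 group has only a bound, which sets the bright group's mean log2 signal against the background or the dim signal, whichever is higher, on each dim array. In list medians with genes at their bound, a gene at background in both groups counted as unchanged.

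The genes named are the 8 markers, the largest changes, up to 5 members per list with the smallest p among called ones, 10 glial and glioma genes, and genes whose call depends on the controls. Other list members were named after their values were seen. The markers, members and lists were chosen with earlier results of these data known. Promoter windows are from RefSeq (GRCm38.p6). The main fit did not pair samples by replicate number. Alternatives covered the controls used, scaling, offset, probe set choice, filter, trend, fold threshold, samples in the fit, a replicate block and leaving out each replicate.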

Additional observations from a re-analysis of the deposited data

Results flagged for a closer look

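Over the 215 genes named here, 430 groups of 5 arrays were examined for 1 array far from the other 4, by a gap of more than 0.71 of the group's range, and 25 had one. Chance gives about 1 in 20 such groups. Among transformed arrays, single high signals were Clic5 at 23429 in replicate 1 (others 21629.8 to 21937), Dusp26 at 251 in replicate 2 (others 14 to 25.8) and Itgam at 139 in replicate 1 (others 7.59 to 13.6). A single transformed array was high for Kcnk2 at 24675 in replicate 3 (others 22839 to 23165) and Slc3a2 at 65320.1 in replicate 3 (others 58060.1 to 59439). Among transformed arrays, single low signals were Anxa2 at 15863 in replicate 4 (others 17065 to 17494), Bcl2l1 at 5769.9 in replicate 1 (others 6676 to 6863) and Col1a1 at 46 in replicate 3 (others 83 to 95.8). A single transformed array was low for Dmrtb1 at 33.3 in replicate 4 (others 162 to 279), Gclc at 8678 in replicate 1 (others 9406 to 9610.4) and Hes5 at 369 in replicate 1 (others 641 to 778). Low alone among the transformed arrays were Hoxa5 at 1600.1 in replicate 1 (others 2482 to 2881), Ifi35 at 14583 in replicate 4 (others 15464 to 15789.9) and Mycl at 98 in replicate 3 (others 401 to 638). Transformed arrays also had, as single low signals, Pdia4 at 3512 in replicate 5 (others 3933 to 4044), Shmt1 at 1032 in replicate 4 (others 1258 to 1344) and Syt1 at 5489 in replicate 5 (others 5892 to 6039). Among control arrays, single high signals were Ccl5 at 72.5 in replicate 4 (others 22.5 to 32.6), Ifit1 at 124 in replicate 2 (others 35 to 47.8) and Rasgef1c at 106 in replicate 2 (others 28.4 to 42.5). A single control array was high for Twist1 at 161 in replicate 3 (others 8.24 to 15.9). Among control arrays, single low signals were Fgfr3 at 2440.2 in replicate 3 (others 4419.9 to 5402), Nptx1 at 486 in replicate 1 (others 1238 to 1466) and P2rx3 at 103 in replicate 4 (others 343 to 459). A single control array was low for Slc4a4 at 1538 in replicate 3 (others 4451 to 6647).

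The change of 7 marker genes in transformed postnatal cells differed from that in transduced embryonic cells by the test of the difference itself in limma, on the log2 scale. It was greater in postnatal cells for Ddit3 by 2.08 (adjusted p = 3.87e-09), for Syt4 by 7.80 (adjusted p = 2.18e-09), for Pth2r by 9.02 (adjusted p = 5.97e-10), for Wfdc18 by 8.94 (adjusted p = 2.71e-09) and for Serpina3n by 6.45 (adjusted p = 1.12e-07). The difference was -4.73 for Cdkn1c (adjusted p = 1.44e-10) and -4.09 for Cav1 (adjusted p = 1.15e-07). Apart from Ddit3, each was above background on 3 or fewer arrays of at least 1 of the 4 groups (none of 5 postnatal controls for Wfdc18, none of 5 arrays in both embryonic groups for Serpina3n), so these sizes are set in part by the added 16. The 5 transformed arrays lay beyond all 5 control arrays in each of the 7.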

How the results depend on the processing

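Leaving out each of the 10 postnatal arrays in turn gave 2786 to 2928 genes called (1668 to 1758 higher and 1084 to 1226 lower), and 3408 to 3551 for the difference from the embryonic response (1669 to 1738 higher and 1715 to 1858 lower). Without the 2-fold threshold, 7692 genes passed (3694 higher and 3998 lower), and 48.0% of them were higher, against 59.9% with it. For the difference from the embryonic response 7083 passed (3293 higher and 3790 lower). Those counts moved because the threshold was dropped. All other settings kept the total within 1.5 times. They gave 3002 genes against control replicates 1 to 3 (2449 shared with the calls above), 2903 with quantile normalization (53.9% higher), 2599 with an offset of 64, 2695 with the mean of all probe sets and 2800 with only the 10 postnatal arrays, for which the embryonic difference was not run.

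In the labels, transformed and control samples are linked only by a number. Transformed and control arrays of the same number correlated at -0.032 to 0.051 in their deviations from the group means over 10473 genes, and 1 of 5 transformed arrays correlated best with its own number. With the replicate block, 2886 genes were called, 2823 of them shared. Of 260 genes fixed by rule, 245 were called. Of those, 21 lost the call against control replicates 1 to 3, and 9 on leaving out 1 array (Abcc9, Adamts5, Cdk6, Cnp, Col4a2, Dhcr7, Nes, P2rx7 and Tek). None of the 260 changed direction with a call under any setting. Genes near background have changes that the offset sets in part. Of the counts of list members called, 44 over all lists and single arrays left out moved by more than 1.5 times, most of them counts of 1 to 3.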
